A study of Oryza sativa Japonica Group with 8 samples.

Results

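Leaf RNA of rice left without water for 1 day was set against leaf RNA of well-watered rice, which is the earliest drought comparison the study allows. The plants were of the Ilmi variety (Oryza sativa, japonica group), germinated on agar medium, moved to soil in pots of 3 plants and raised in a greenhouse. Watering stopped at an age of 5 weeks by one label and at 5 weeks after the move to soil by another, once the soil had been brought to about 75% water content. For each of 4 treatments (day 1, day 2, day 3 and well-watered) there is 1 library of total RNA and 1 of mRNA, and the day 1 comparison uses 4 of the 8 libraries: 1 day 1 and 1 well-watered library of each kind. Both treatments thus share variety, age, growth medium and greenhouse, and the labels name no transgene, mutation or hormone treatment. The library kinds are not biological replicates, since the labels do not say whether they came from separate plants or from the same RNA. With 1 library per treatment and kind there is no replicate error and no p-value. A gene was called higher or lower on day 1 only when it differed at least 2-fold in the same direction in both kinds, on the scale of FPKM + 1.

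A leaf that runs short of water makes abscisic acid (ABA), a hormone that is sensed by soluble receptors. The bound receptor blocks clade A protein phosphatases 2C, which frees SnRK2 kinases to close stomata and to switch on genes through bZIP factors. Cytokinin is commonly described as acting against these responses, and leaves under prolonged drought dismantle chlorophyll and chloroplast protein and burn lipids and amino acids. The comparison asks how much of this shows in transcript levels on the first day.

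The tables have 27626 genes in common. Of these, 18113 averaged 1 FPKM or more (FPKM being mapped fragments scaled by transcript length and library size) in each table and are called measured here. The means were taken over all 4 libraries of a table, so a gene could pass through a later drought day. The genes next to this limit were Os03g0103900 with 1.0006 FPKM in its lower table just inside and Os01g0133100 with 0.9994 FPKM just outside. The FPKM of a library summed to 717218 and 700484 on day 1 (total RNA, then mRNA), against 755487 and 716082 in the well-watered libraries. Depth was gauged from the most common product of FPKM and length among low values, taken as 1 fragment, which is an assumption. Only 4.52% and 5.94% of low values lay at that product on day 1, against 6.94% and 5.39% well-watered. On this assumption the day 1 libraries held 19.8 (total RNA) and 18.1 (mRNA), against 17.5 and 16.3 well-watered, all in units of 1e6 fragments. At 1 FPKM a transcript of median length would then rest on between 23.8 and 28.7 fragments. Exact Poisson limits (95%) around these numbers span 15.2 to 41.3 and cover counting error only. The 10 most abundant genes held 17.4% and 7.91% of FPKM on day 1, against 24.3% and 11.8% well-watered. Leaf RNA was plain in all 4 libraries: the Rubisco small subunit gene Os12g0291100 stood at 9661 and 6343 FPKM on day 1, against 16319 and 9757 FPKM well-watered. The root marker RCc3 and the meristem marker OSH1 were not analysed here. Throughout, where a pair of values is given, the first is total RNA and the second mRNA.

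On day 1, 1256 of the 18113 measured genes (6.93%) were higher in both kinds and 446 (2.46%) were lower, so that 1702 (9.4%) were called. These shares are the background for every gene list below on the deposited scale. The higher share rose with abundance, from 2.30% of the 4529 genes with the lowest mean FPKM to 14.9% of the 4528 with the highest. The lower share was 2.89% and 2.54% in these sets. The background was not matched to the abundance of a list, so a list of abundant genes can exceed 6.93% higher on that account. The median gene stood at 0.23 and 0.17 (log2 ratio, day 1 over well-watered), so the deposited scale leans towards higher calls. The part of the smaller share of the most abundant genes in this shift was not tested. With these medians a ratio above 0 was the more common state in each kind. All-gene shares above or below 0 in both kinds are not given here, so such counts for the lists have no background beside them. When libraries were scaled by median ratios, the median moved to 0.02 and -0.0038 and the counts to 891 higher and 677 lower, which made higher genes 56.8% of the calls, against 73.8% on the deposited scale. The authors' normalized log2 values gave 964 and 765 calls, or 55.8%. Under median-ratio scaling 891 of the 1256 higher calls and 446 of the 446 lower calls were kept. Adding 5 FPKM in place of 1 before taking ratios (a pseudocount of 5) gave 648 higher and 239 lower genes. List counts under another setting are to be read beside the all-gene counts of that setting.

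Most calls did not reach 4-fold in both kinds. At 4-fold there were 273 higher and 48 lower genes, at 8-fold 79 and 14, at 16-fold 27 and 3, and at 32-fold 8 and 0. The higher genes took up 9.28% and 10.1% of all measured FPKM on day 1, against 2.56% and 2.86% in the well-watered libraries. The lower genes took up 3.52% and 4.12% on day 1, against 8.99% and 10.7% well-watered. The higher side held more genes, while the shares of FPKM that it gained and that the lower side gave up were of like size.

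The library kinds can be checked against each other gene by gene. Their log2 ratios had a Pearson's r of 0.916 and a Spearman's rho of 0.864 across the 18113 genes, which are not independent points and which share plants if the kinds came from the same RNA. The ratios lay within 0.5 of each other for 93.3% of genes, and the SD of their difference was 0.291. That SD was 0.350 in the 4529 genes with the lowest mean FPKM and 0.239 in the 4528 with the highest, so the kinds lay closer together for abundant transcripts. In total RNA alone 1568 genes (8.66%) were higher and 542 (2.99%) lower, and in mRNA alone 1573 (8.68%) and 603 (3.33%). Of the genes higher in total RNA 80.1% were also called in mRNA, and of those higher in mRNA 79.8% were called in total RNA. For lower genes the shares were 82.3% and 74.0%. Genes called in 1 kind alone were mostly near misses. The 312 higher only in total RNA had a median mRNA ratio of 0.81, and 307 of them were above 0. The 317 higher only in mRNA had a median total RNA ratio of 0.81, with 312 above 0.

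**Figure D1:**
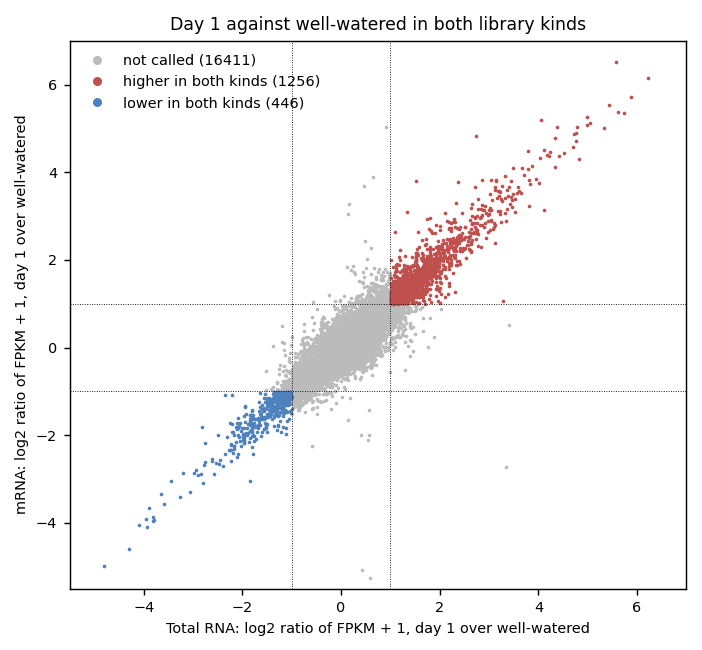
Each point is 1 of 18113 genes, with its log2 ratio of FPKM + 1 (day 1 over well-watered) in total RNA on the x axis and in mRNA on the y axis; dotted lines mark the 2-fold limits. The cloud follows the diagonal (r of 0.916), with 1256 genes higher and 446 lower in both kinds, and grey points far from the diagonal include Os04g0399200, at 0.0671 FPKM in mRNA on day 1.

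A small set of genes broke this agreement, and these were singled out after their values were seen. In 110 genes (0.607%) the ratios of the kinds differed by at least 1, in 15 by at least 2 and in 7 by at least 3. The only gene called in opposite directions was Os07g0173700, a gene for protein S18 of the small ribosomal subunit, which stood at 9.12 FPKM in total RNA and was listed at 0 in mRNA on day 1, against a listed 0 in total RNA and 5.60 FPKM in mRNA well-watered. The chaperonin-like Os06g0197550 stood at 42.0 FPKM (total RNA) on day 1 with mRNA listed at 0, against 31.2 and 32.8 FPKM well-watered. A noncoding transcript, Os04g0399200, stood at 65.7 and 0.0671 FPKM on day 1, against 43.1 and 40.1 FPKM well-watered. Among the 7 genes that differed by at least 3 there were 4 noncoding ones, with lengths of 270 to 579 bases. Apart from Os07g0173700, with a 0 in each kind, a single library of each of the 7 stood far from the other 3 and sets the gap. How the authors' software shared reads between overlapping or near-identical transcripts was not given in the sources used here.

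Genes of the ABA pathway differed by step. Making ABA depends on 9-cis-epoxycarotenoid dioxygenases (NCED), which cut a carotenoid, and its removal on 8'-hydroxylases. Of 8 measured genes for synthesis and breakdown, 2 were higher and 3 lower. NCED4 (Os07g0154100) stood at 2.52 and 2.73 FPKM on day 1, against 0.199 and 0.259 FPKM well-watered (log2 ratios 1.55 and 1.57). NCED3 (Os03g0645900) stood at 5.79 and 5.85 FPKM on day 1, against 2.37 and 2.37 FPKM well-watered, just past the limit. Both of these higher genes are scarce, and with a pseudocount of 5 FPKM neither was called. NCED3 was not called under either other scaling. Much more abundant was NCED1 (Os02g0704000), at 409 and 506 FPKM on day 1, against 1056 and 1323 FPKM well-watered, which was lower at -1.37 and -1.38 and lost its call on the authors' normalized values. NCED5 (Os12g0617400) was lower as well, at 1.32 and 1.85 FPKM on day 1, against 9.03 and 9.31 FPKM well-watered. The hydroxylase gene ABA8ox3 (Os09g0457100), which acts in breakdown, was lower at 3.79 and 5.97 FPKM on day 1, against 14.4 and 22.9 FPKM well-watered, while ABA8ox1 (ratios 0.18 and 0.27) and ABA8ox2 (-0.12 and -0.05) were not called. Lower genes were therefore found for making as well as for removing the hormone. On the authors' normalized values the counts were 1 higher and 2 lower.

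The phosphatases and kinases of ABA signalling were more one-sided. Of 10 clade A phosphatase genes, 8 were higher and none lower, with median ratios of 1.77 and 1.57 against 0.23 and 0.17 for all genes. PP2C51 (Os05g0572700) stood at 11.9 and 17.6 FPKM on day 1, against 0.577 and 0.308 FPKM well-watered, the largest ratios of the family at 3.03 and 3.83. PP2C68 (Os09g0325700) stood at 33.0 and 37.7 FPKM on day 1, against 6.504 and 6.06 FPKM well-watered, and PP2C49 (Os05g0457200) at 20.9 and 29.2 FPKM on day 1, against 3.46 and 5.55 FPKM well-watered. The most abundant member was PP2C06 (Os01g0583100) in mRNA, with 209.6 FPKM on day 1, against 63.8 FPKM well-watered. PP2C08 (Os01g0656200), with ratios of -0.69 and -0.34, and PP2C53 (Os05g0592800), with 0.24 and -0.07, were the members that were not called. PP2C50 (Os05g0537400) was called at 1.22 and 1.21 but not under median-ratio scaling or with a pseudocount of 5, and PP2C37 (Os04g0167900) not with the latter.

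Of 10 SnRK2 kinase genes, 4 were higher and none lower, in every scaling tried. SAPK1 (Os03g0390200) stood at 63.6 and 73.7 FPKM on day 1, against 21.2 and 23.2 FPKM well-watered, with ratios of 1.54 and 1.62. SAPK7 (Os04g0432000) stood at 20.9 and 20.7 FPKM on day 1, against 7.35 and 6.55 FPKM well-watered. The other higher members were SAPK6 (Os02g0551100, ratios 1.36 and 1.37) and SAPK3 (Os10g0564500, 1.42 and 1.36). SAPK8 (ratios 0.25 and 0.27), SAPK9 (-0.35 and -0.29) and SAPK10 (0.76 and 0.74), of the subclass most strongly activated by ABA, were not called. SAPK2 (Os07g0622000), at -0.47 and -0.38, and SAPK5 (Os04g0691100), at -0.63 and -0.49, lay below 0 in both kinds without reaching the limit.

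Among 11 regulators linked to drought, 5 were higher and 2 lower. The NAC factor gene NAC10 (Os11g0126900) stood at 22.5 and 34.3 FPKM on day 1, against 0.855 and 1.06 FPKM well-watered, with the largest ratios of the list at 3.66 and 4.10. The ABA-responsive bZIP gene bZIP23 (Os02g0766700) stood at 55.9 and 46.8 FPKM on day 1, against 15.4 and 11.2 FPKM well-watered. SNAC1 (Os03g0815100), a NAC factor of guard cells, stood at 98.8 and 65.7 FPKM on day 1, against 37.1 and 22.7 FPKM well-watered, and DREB2A (Os01g0165000), which binds the dehydration-responsive element, at 9.93 and 11.3 FPKM on day 1, against 3.07 and 3.07 FPKM well-watered. bZIP46 (Os06g0211200), at 1.07 and 1.52, was called on the deposited scale but under neither other scaling. The 2 lower genes, DREB1A (Os09g0522200) and DREB1B (Os09g0522000), act in the cold response. DREB1A stood at 0.763 and 0.498 FPKM on day 1, against 6.67 and 4.31 FPKM well-watered. DREB1B stood at 1.10 and 0.313 FPKM on day 1, against 8.42 and 5.21 FPKM well-watered. Neither of these was called with a pseudocount of 5, nor was DREB2A. NAP (Os03g0327800), a NAC factor of leaf senescence, had day 1 ratios of only 0.14 and 0.24.

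Cytokinin response genes held some of the largest drops of the comparison. A-type response regulators are switched on by cytokinin within a short time and damp its signal, so they are widely read as a gauge of cytokinin response. All 5 measured members were lower, with median ratios of -3.80 and -3.93. RR10 (Os12g0139400) stood at 2.07 and 1.33 FPKM on day 1, against 59.5 and 55.8 FPKM well-watered (ratios -4.30 and -4.61). RR2 (Os02g0557800) stood at 2.67 and 2.83 FPKM on day 1, against 50.2 and 58.1 FPKM well-watered. RR4 (Os01g0952500) stood at 3.24 and 2.49 FPKM on day 1, against 61.6 and 43.4 FPKM well-watered, and RR9 (Os11g0143300) at 3.09 and 1.64 FPKM on day 1, against 55.7 and 39.3 FPKM well-watered. In each of these genes both day 1 values lay far below both well-watered values. RR6 (Os04g0673300), a scarcer member, stood at 0.509 and 1.18 FPKM on day 1, against 9.63 and 6.63 FPKM well-watered, and its call was the one of the 5 that was lost with a pseudocount of 5. RR1 (Os04g0442300) was in both tables but under the minimum, at 0.173 and 0.245 FPKM on day 1, against 2.74 and 6.003 FPKM well-watered. RR3 (Os02g0830200), also under it, showed no such gap, at 0.208 and 2.59 FPKM on day 1, against 0.101 and 2.48 FPKM well-watered. RR9 and RR10 are near-identical copies, so reads may have been split between them, and RR5 and RR7 were not analysed here. None of 7 measured genes of cytokinin synthesis and removal was called, with medians of -0.25 and -0.55, and 1 was lower under each other scaling.

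Other genes on the lower side were of varied description. The SANT/MYB gene Os05g0567600 was the lowest of all described genes, at 2.91 and 2.17 FPKM on day 1, against 109 and 99.2 FPKM well-watered, and another gene of that description, Os01g0663051, was lower at -2.24 and -2.23. An FPF1-like gene (Os04g0282400), named for a flowering-promoting factor of mustard and Arabidopsis, stood at 25.3 and 21.2 FPKM on day 1, against 451 and 368 FPKM well-watered. Phosphoethanolamine methyltransferase (Os05g0548900), which makes the choline head group of membrane lipids, stood at 21.4 and 22.2 FPKM on day 1, against 312 and 336 FPKM well-watered. The day 1 values of each of the 3 transcripts named with their FPKM lay far below both well-watered values.

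A bifunctional aspartokinase and homoserine dehydrogenase gene (Os09g0294000), for the entry steps of the aspartate-derived amino acids, was lower at 4.93 and 4.10 FPKM on day 1, against 70.2 and 59.8 FPKM well-watered. Lower cytochrome P450 genes were Os11g0489250 (ratios -3.94 and -4.10), the CYP78A9-like Os09g0528700 (-3.66 and -3.35) and the CYP78A1-like Os08g0547300 (-2.98 and -2.86). A homeodomain-like gene, Os05g0579600, stood at 15.2 and 11.5 FPKM on day 1, against 251 and 188 FPKM well-watered. Prolyl endopeptidase (Os04g0561500), which cuts peptides after proline, stood at 4.06 and 3.80 FPKM on day 1, against 47.8 and 50.2 FPKM well-watered. Among the 15 lowest described genes were also the NAC gene Os08g0200600 at -2.90 and -2.91, a DUF1645 gene (Os05g0568800) at -3.06 and -3.30 and a GRAM-domain gene (Os02g0636600). The last was listed at 0 in total RNA on day 1 and stood at 0.166 FPKM in mRNA, against 9.91 and 8.68 FPKM well-watered.

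Isocitrate lyase (Os07g0529000) and malate synthase (Os04g0486950) are the pair of enzymes particular to the glyoxylate cycle, which turns the acetyl units of fatty acids into sugar precursors. Isocitrate lyase stood at 342 and 187 FPKM on day 1, against 3.58 and 1.64 FPKM well-watered, with the largest smaller ratio of any gene (6.23 and 6.15). Malate synthase stood at 138 and 111 FPKM on day 1, against 1.84 and 1.72 FPKM well-watered. These enzymes were 2 of the 8 measured genes of the glyoxylate cycle and gluconeogenesis list, the other 6 were not called on the deposited scale, and the list medians were -0.01 and -0.18. Under each other scaling 1 of the 6 was lower.

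Peroxisomal beta-oxidation, which supplies those acetyl units, was higher in 7 of 13 measured genes and lower in none. Its medians were 1.10 and 1.06, and all 13 ratios were above 0 in both kinds. The acyl-CoA oxidase gene Os05g0163700 stood at 59.0 and 95.6 FPKM on day 1, against 10.6 and 17.0 FPKM well-watered. A multifunctional protein of the pathway (Os02g0274100) stood at 242 and 294 FPKM on day 1, against 51.5 and 70.5 FPKM well-watered. Further acyl-CoA oxidase genes were higher, Os06g0354500 (ratios 1.61 and 1.45) and Os11g0605500 (1.64 and 1.66). Under either other scaling the count was 4 of 13. Of 16 peroxisome biogenesis genes 2 were higher and 1 lower, the higher being genes of the PEX11 family, which divides peroxisomes. Of these, Os06g0127000 stood at 164 and 144 FPKM on day 1, against 49.3 and 39.4 FPKM well-watered, and the call of Os03g0302000 was lost under each other scaling and with a pseudocount of 5.

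**Figure D2:**
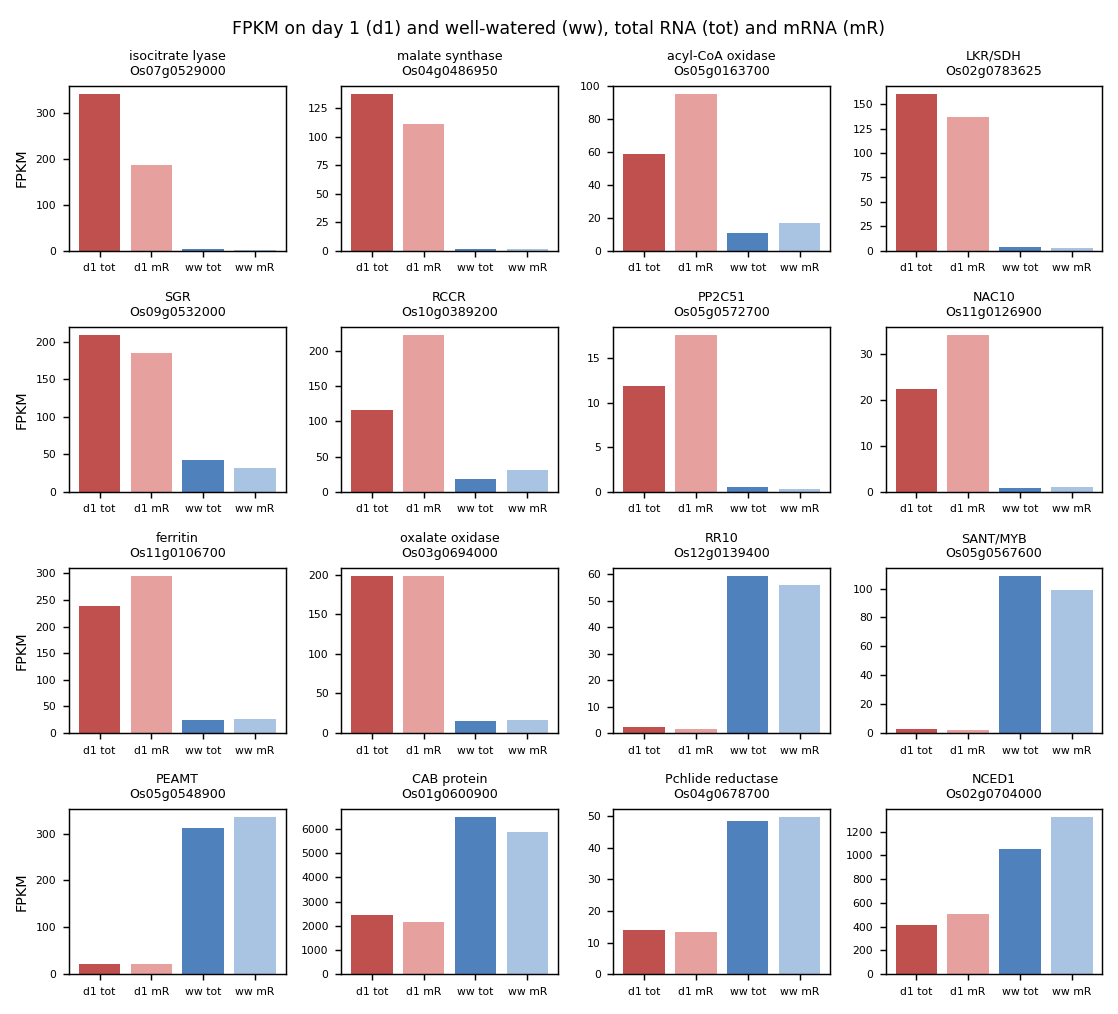
Each panel gives the FPKM of 1 gene in the 4 libraries, day 1 (d1, red) left and well-watered (ww, blue) right, in total RNA (tot) and mRNA (mR), on a linear axis from 0. In the first 10 panels both day 1 bars stand above both well-watered bars, as for isocitrate lyase (342 and 187 FPKM on day 1, against 3.58 and 1.64 FPKM well-watered). In the last 6 they stand below, as for RR10 (2.07 and 1.33 FPKM on day 1, against 59.5 and 55.8 FPKM well-watered).

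Breakdown of branched-chain amino acids, lysine and tyrosine was higher in 9 of 18 measured genes and lower in none, with medians of 1.02 and 0.97, and 6 were higher under median-ratio scaling. Os02g0783625, described as lysine ketoglutarate reductase/saccharopine dehydrogenase, the first enzyme of lysine breakdown, stood at 161 and 137 FPKM on day 1, against 3.93 and 2.93 FPKM well-watered. Its neighbour Os02g0783700, of the same description, stood at 81.8 and 46.03 FPKM on day 1, against 1.91 and 1.37 FPKM well-watered. They may be parts of 1 gene, so their agreement is not independent. Fumarylacetoacetase (Os02g0196800), the last enzyme of tyrosine breakdown, stood at 408 and 314 FPKM on day 1, against 75.7 and 54.6 FPKM well-watered. Isovaleryl-CoA dehydrogenase (Os05g0125500), a step of leucine breakdown, stood at 62.3 and 114 FPKM on day 1, against 14.5 and 23.2 FPKM well-watered. Electron-transferring dehydrogenases of this kind feed mitochondrial respiration.

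Transport and recycling of nitrogen differed gene by gene. Of 62 amino acid and peptide transporter genes, 10 were higher and 3 lower, with medians close to those of all genes (0.12 and 0.16). With a pseudocount of 5 the counts were 5 and 2, and under each other scaling 7 and 5. The transporter Os04g0460300 stood at 66.8 and 66.7 FPKM on day 1, against 0.580 and 0.453 FPKM well-watered, and the PTR2-like peptide transporter gene Os02g0580900 at 174 and 263 FPKM on day 1, against 23.3 and 31.4 FPKM well-watered. Others were lower, among them Os04g0562100 at -1.79 and -1.99. Of 22 genes of glutamate and asparagine metabolism 5 were higher and none lower, with medians of 0.41 and 0.29, but only 2 were higher under median-ratio scaling or with a pseudocount of 5. The NADH-dependent glutamate synthase gene Os01g0682001 stood at 81.8 and 31.1 FPKM on day 1, against 10.6 and 5.51 FPKM well-watered. Nitrite reductase (Os01g0357100), of primary nitrate assimilation, was lower at 24.99 and 42.2 FPKM on day 1, against 109 and 170.4 FPKM well-watered, as was a nitrate transporter gene (Os01g0547600) at -1.61 and -1.32. These were the 2 lower genes among 22 for nitrogen and phosphate uptake, where none was higher and the medians were -0.04 and -0.15.

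Proline, an osmolyte, had its synthesis gene P5CS1 (Os05g0455500) higher at 51.4 and 59.8 FPKM on day 1, against 9.61 and 11.9 FPKM well-watered. The degrading enzyme ProDH (Os10g0550900) stood at 18.9 and 13.1 FPKM on day 1, against 37.8 and 27.2 FPKM well-watered, a ratio of -0.96 and -0.998 that missed the limit in both kinds and reached it under both other scalings. Of 11 genes for trehalose, galactinol and raffinose 1 was higher, a trehalose-6-phosphate synthase gene (Os09g0376800) at 1.601 and 1.45, and the medians were -0.14 and -0.08. Starch and sucrose breakdown was higher in 4 of 30 genes, with medians of 0.51 and 0.26, among them a beta-amylase (Os03g0351300) at 56.2 and 36.6 FPKM on day 1, against 7.500 and 5.05 FPKM well-watered, and a sucrose synthase (Os03g0340500) at 1.67 and 1.49. Of 31 sugar transporter genes 5 were higher and 2 lower, with medians of 0.29 and 0.26, and under median-ratio scaling the counts were 3 and 3. The MtN3-type Os02g0513100, of the family that lets sugar leave cells, stood at 19.3 and 26.6 FPKM on day 1, against 0.473 and 0.236 FPKM well-watered, and the sucrose transporter Os03g0170900 at 60.2 and 133 FPKM on day 1, against 14.3 and 34.5 FPKM well-watered. The monosaccharide transporter gene Os04g0453400 was lower at -1.85 and -1.68.

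A fructosyltransferase gene (Os02g0106100), of enzymes that move fructose between sugars, was among the genes with the largest ratios, at 121 and 305 FPKM on day 1, against 1.56 and 2.32 FPKM well-watered. It had the largest mRNA ratio of all called genes (5.57 and 6.52). The salt-induced SalT gene (Os01g0348900), which encodes a lectin, stood at 147 and 160.5 FPKM on day 1, against 6.12 and 3.95 FPKM well-watered. Others of the 15 highest were Os05g0575000, with no function in its description, at 398 and 246 FPKM on day 1, against 5.77 and 3.70 FPKM well-watered, and Os02g0649300 at 5.74 and 5.36. An anthranilic acid methyltransferase gene (Os06g0244000) was higher at 4.78 and 5.03, a diacylglycerol acyltransferase-domain gene (Os09g0509500) at 4.76 and 4.72 and a CHY zinc finger gene (Os03g0348900) at 4.72 and 4.88. Also among the 15 were a low-temperature-induced protein (Os03g0286900, ratios 4.99 and 5.25), a WCOR719-like gene (Os03g0820500, 4.98 and 5.08), an alpha/beta hydrolase (Os07g0643000, 4.53 and 4.45) and a family 18 chitinase-like gene (Os05g0247100, 4.75 and 4.89).

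All 5 listed genes of chlorophyll breakdown were higher, with medians of 2.196 and 2.08. SGR (Os09g0532000), the stay-green protein that removes magnesium from chlorophyll a, stood at 209 and 185 FPKM on day 1, against 42.6 and 31.8 FPKM well-watered. NYC1 (Os01g0227100), which reduces chlorophyll b, stood at 290.4 and 291 FPKM on day 1, against 100.7 and 104 FPKM well-watered. NYC3 (Os06g0354700), a hydrolase needed for the process, stood at 726 and 677 FPKM on day 1, against 181 and 159 FPKM well-watered, and was the most abundant of them. The ring-opening oxygenase PAO (Os03g0146400) had ratios of 2.196 and 1.86 and the reductase after it, RCCR (Os10g0389200), 2.65 and 2.81. The calls of all 5 were made in every scaling and pseudocount tried.

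Chlorophyll synthesis lay on the other side, with 5 of 22 measured genes lower and none higher, and 18 of 22 below 0 in both kinds. Protochlorophyllide reductase, the light-driven step, had a lower gene Os04g0678700, at 13.9 and 13.4 FPKM on day 1, against 48.5 and 49.8 FPKM well-watered, and a lower gene Os10g0496900, at 86.4 and 91.5 FPKM on day 1, against 208 and 218 FPKM well-watered. Also lower were a magnesium chelatase subunit (Os03g0563300, ratios -1.17 and -1.20), which helps insert the magnesium, and magnesium-protoporphyrin methyltransferase (Os06g0132400, -1.34 and -1.36), of the next step. The medians were -0.59 and -0.51, so the lists for making and for breaking down chlorophyll lay on opposite sides of 0. Under each other scaling 7 synthesis genes were lower.

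Light-harvesting and photosynthesis genes were mostly below the watered level without reaching 2-fold. Among 16 genes for chlorophyll a/b-binding proteins 4 were lower and none higher, 15 lay below 0 in both kinds, and the medians were -0.63 and -0.50. CAB protein 2 (Os01g0600900) stood at 2449.7 and 2148 FPKM on day 1, against 6501 and 5877 FPKM well-watered, a call lost on the authors' normalized values, where the list count was 2. Of 28 photosystem subunits 3 were lower and 2 higher, with 25 below 0 in both kinds and medians of -0.56 and -0.49. The 10 kDa protein gene Os07g0147500 stood at 226 and 231 FPKM on day 1, against 819 and 785 FPKM well-watered, while the adjoining Os07g0147550, of like description, was higher at 4.67 and 4.49 FPKM on day 1, against 1.29 and 1.23 FPKM well-watered, a call lost with a pseudocount of 5. PsbS, which protects photosystem II from excess light, is represented by Os01g0869800, lower at 799 and 690.2 FPKM on day 1, against 1745 and 1401 FPKM well-watered, and by Os04g0690800 (22 kDa protein), higher at 253 and 467 FPKM on day 1, against 113 and 169 FPKM well-watered. The calls of both depended on the scaling: the lower was lost on the authors' normalized values and the higher under either other scaling.

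Of 13 photorespiration genes 3 were lower and none higher, with medians of -0.50 and -0.44. All 3 encode parts of the glycine cleavage system: Os04g0623800 (aminomethyltransferase) at 208 and 207 FPKM on day 1, against 526 and 538 FPKM well-watered, Os06g0611900 (P subunit) at -1.16 and -1.50 and Os10g0516100 (H protein) at -1.11 and -1.11. The P subunit call was lost on the authors' normalized values. In the list of 17 Calvin cycle and Rubisco genes 1 was higher, 1 was lower and 14 lay below 0 in both kinds, with medians of -0.45 and -0.52. Neither of its called genes was called with a pseudocount of 5. The list, set by words in the descriptions, leaves out the plastid aldolase gene Os11g0171300. That gene, given below, was lower except on the authors' normalized values. The 4 Rubisco small subunit genes had total RNA ratios of -0.95 to -0.76 and none was called. Their medians were -0.88 and -0.87 on the deposited scale, -1.12 and -1.07 under median-ratio scaling, where 2 were lower, and -0.35 and -0.33 on the authors' normalized values, where none was. Of 55 plastid ribosomal protein genes 1 was higher and 2 lower, with medians of -0.27 and -0.33, but 9 were lower under median-ratio scaling and 13 on the authors' normalized values. Cytosolic ribosomal protein genes, of which 154 of 165 lay above 0 in both kinds, had medians of 0.58 and 0.66. Of the 165, 4 were higher (2.42%, against 6.93% of all genes). Under median-ratio scaling these medians were 0.34 and 0.46, and 1 was higher.

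**Figure D3:**
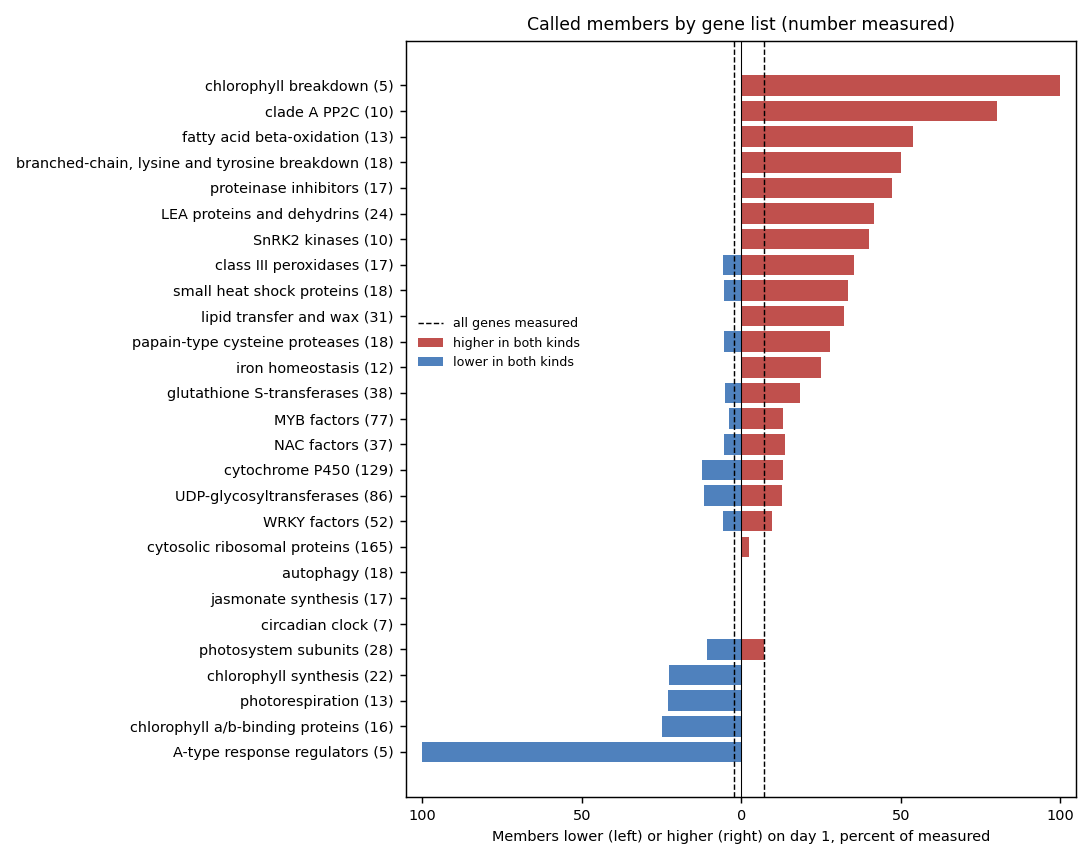
Bars give, for 27 gene lists, the percent of measured members higher (red, right) or lower (blue, left) on day 1 in both kinds; the number measured is in brackets and dashed lines mark all measured genes (6.93% and 2.46%). Chlorophyll breakdown (5 of 5 higher) and A-type response regulators (5 of 5 lower) stand at the ends, and autophagy, jasmonate synthesis and the circadian clock have no called member.

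FPKM are shares of a library, and a few abundant transcripts carried much of the difference. Ranked by the smaller difference of the kinds, the largest loss was that of a type 3 metallothionein (Os01g0200700), a small metal-binding protein, at 23646 and 17648 FPKM on day 1, against 31845 and 25265 FPKM well-watered. Other large losses were those of CAB protein 2 and the Rubisco small subunit gene Os12g0291100, both given above. Neither the metallothionein (ratios -0.43 and -0.52) nor the Rubisco gene (-0.76 and -0.62) was called. In total RNA alone a larger loss stood out, that of Os01g0791033, described like the plastid-encoded large subunit of Rubisco and picked after its values were seen. It stood at 37158 and 7.36 FPKM on day 1, against 55881 and 9.35 FPKM well-watered, and was not called. The sum of all losses was -168683 and -152456 FPKM and that of all gains 130334 and 137228 FPKM. In bulk leaf RNA, fewer cells of a type and less RNA per cell cannot be told apart.

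Most of the other large losses were of chloroplast proteins or metallothioneins. Plastid aldolase (Os11g0171300) stood at 1934 and 1718 FPKM on day 1, against 4695 and 3501 FPKM well-watered, called lower except on the authors' normalized values. Metallothionein 3B (Os05g0202800) stood at 1089.8 and 1092 FPKM on day 1, against 2977 and 2716 FPKM well-watered, with the same exception, and the conserved hypothetical gene Os01g0910900 at 1252 and 1754 FPKM on day 1, against 3063 and 4385 FPKM well-watered, also with it. The largest gains were smaller. A glyceraldehyde-3-phosphate dehydrogenase gene (Os08g0126300), of glycolysis, stood at 2024 and 2324 FPKM on day 1, against 1034 and 1153 FPKM well-watered, with ratios of 0.97 and 1.01 that missed the limit in total RNA. The lipid transfer protein gene Os12g0115100 stood at 1254 and 1939.6 FPKM on day 1, against 565 and 859 FPKM well-watered, a call lost under median-ratio scaling. Another, Os11g0115400, stood at 882 and 929.9 FPKM on day 1, against 275 and 265 FPKM well-watered. A sodium/sulphate symporter family gene (Os08g0503700) stood at 631 and 645 FPKM on day 1, against 131 and 122 FPKM well-watered, and a Tat-signal gene (Os01g0644000) at 459 and 533 FPKM on day 1, against 46.7 and 40.8 FPKM well-watered.

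**Figure D4:**
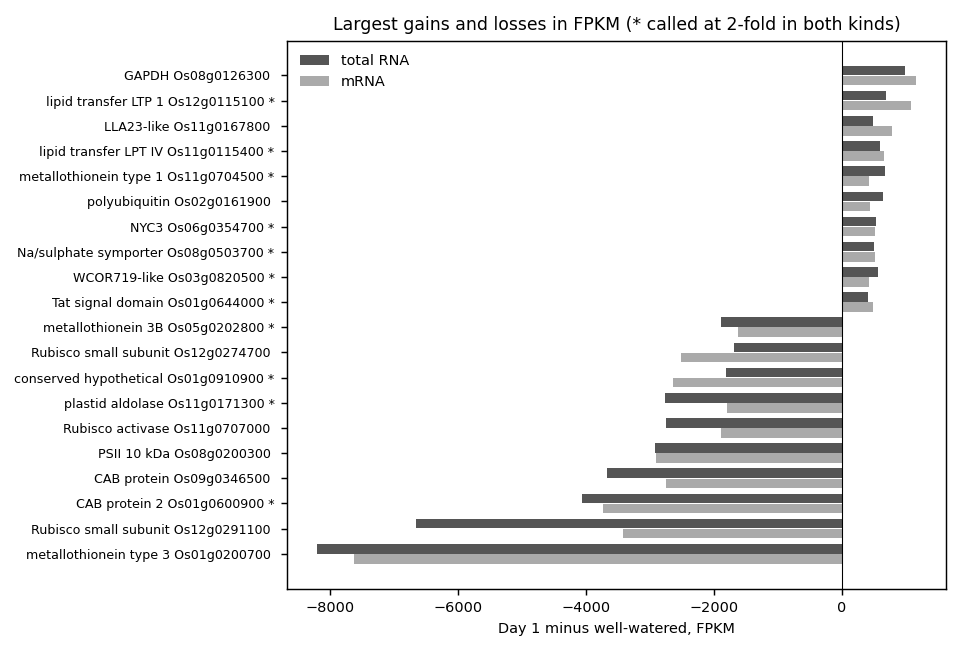
Bars show the difference in FPKM (day 1 minus well-watered) in total RNA (dark) and mRNA (light) for the 10 genes with the largest gain and the 10 with the largest loss; asterisks mark genes called at 2-fold in both kinds. The losses reach -8199 and -7617 FPKM for the type 3 metallothionein, and the largest gains are 990.1 and 1171 FPKM for glyceraldehyde-3-phosphate dehydrogenase.

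Protective proteins were partly higher already. Late embryogenesis abundant proteins and dehydrins, which shield dry cells, were higher in 10 of 24 measured genes and lower in none, with medians of 0.62 and 1.02, and the list holds 7 more genes that are in the files but were not measured. The dehydrin gene Os11g0451700 stood at 17.8 and 13.4 FPKM on day 1, against 0.163 and 0.0708 FPKM well-watered. Os01g0314800, a group 3 gene, stood at 271 and 221 FPKM on day 1, against 42.8 and 35.2 FPKM well-watered, and had the highest total RNA value of the 10. The other 2 named by the rule were RAB21 (Os11g0454300, ratios 4.33 and 4.78) and LEA3 (Os05g0542500, 4.05 and 5.20). With a pseudocount of 5 the count was 5 of 24.

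Small heat shock proteins, which hold unfolding proteins, were higher in 6 of 18 genes and lower in 1. Os02g0758000, of the mitochondrial type, stood at 106 and 119.9 FPKM on day 1, against 8.95 and 11.5 FPKM well-watered, and the class II gene Os01g0184100 at 119.9 and 157 FPKM on day 1, against 18.1 and 18.7 FPKM well-watered. An Hsp20-domain gene, Os07g0517100, was lower at 8.52 and 10.2 FPKM on day 1, against 43.1 and 22.7 FPKM well-watered, a call lost with a pseudocount of 5. Of 142 genes of the Hsp70, Hsp90 and DnaJ families 18 were higher and 2 lower, and of 19 heat shock factors 3 were higher and 1 lower, none of the 4 with a pseudocount of 5. The medians of these 3 lists were, in order, 0.38, 0.30 and 0.58 for total RNA, while for mRNA they were 0.46, 0.26 and 0.43, and under median-ratio scaling the Hsp70, Hsp90 and DnaJ count was 12 higher. Heat shock factor C-2b (Os06g0553100) stood at 4.91 and 7.43 FPKM on day 1, against 0.0748 FPKM well-watered in total RNA, and was listed at 0 in well-watered mRNA.

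The chloroplast iron store ferritin is encoded by 2 near-identical genes, and both were higher. Os11g0106700 stood at 238 and 295 FPKM on day 1, against 24.9 and 26.0 FPKM well-watered, and Os12g0106000 at 415 and 514 FPKM on day 1, against 54.9 and 57.3 FPKM well-watered. How reads were shared between the copies was not given in the sources used here. The effect of this on the sum of the copies was not tested. The other higher gene of the 12 on the iron list was Os11g0644800, at 2.23 and 2.32. Its description names tyrosine or nicotianamine aminotransferase, none of the 12 was lower, and the medians were 0.55 and 0.35. Metallothioneins were called mostly the other way, with 3 of 10 lower and 1 higher (Os11g0704500, 1179.9 and 757 FPKM on day 1, against 495 and 320.1 FPKM well-watered). By median the metallothionein list was above 0 (0.36 and 0.33), and on the authors' normalized values the lower count was 1.

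Detoxifying and antioxidant enzymes differed in both directions. Of 38 glutathione S-transferase genes 7 were higher and 2 lower, with medians of 0.32 and 0.27, and the lower count was 4 under median-ratio scaling. Os10g0528100 stood at 79.6 and 62.8 FPKM on day 1, against 3.26 and 1.88 FPKM well-watered, and Os01g0692100 at 54.4 and 58.0 FPKM on day 1, against 7.47 and 6.45 FPKM well-watered. On the same chromosome as the first, Os10g0531400 was lower at 5.70 and 8.74 FPKM on day 1, against 27.5 and 51.3 FPKM well-watered, as was Os10g0530500 at 64.1 and 59.9 FPKM on day 1, against 187 and 159 FPKM well-watered. Of 27 antioxidant enzyme genes 1 was higher and 2 lower, with medians of -0.04 and -0.03. Catalase A (Os02g0115700) was lower at 134 and 287 FPKM on day 1, against 313 and 739 FPKM well-watered, while catalase B (Os06g0727200) was higher at 99.9 and 145 FPKM on day 1, against 34.5 and 62.9 FPKM well-watered, a call lost under median-ratio scaling. A thylakoid-bound ascorbate peroxidase gene (Os04g0434800) had ratios of -1.14 and -1.18, a call lost with a pseudocount of 5.

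Oxalate oxidases of the germin type, which make hydrogen peroxide in the wall, were represented by 4 neighbouring genes on chromosome 3 (Os03g0693700 to Os03g0694000, 27779100 to 27792047, IRGSP-1.0). Os03g0694000 stood at 199 and 199 FPKM on day 1, against 14.9 and 16.4 FPKM well-watered, and Os03g0693900 at 75.5 and 83.7 FPKM on day 1, against 5.88 and 6.45 FPKM well-watered. The first 2 of the 4 were scarce, at 2.74 and 4.57 FPKM and at 4.59 and 4.42 FPKM on day 1, and their calls were lost with a pseudocount of 5. Together with 2 genes upstream, Os03g0693000 and Os03g0693400, they formed the longest run of neighbouring measured genes called in 1 direction. Of runs of at least 3 such genes there were 17 higher and 4 lower. Another held 3 Bowman-Birk inhibitor genes on chromosome 1. The most abundant, Os01g0124200, stood at 31.0 and 25.3 FPKM on day 1, against 10.5 and 7.57 FPKM well-watered. Os01g0124100 had the largest ratios, at 2.28 and 1.71, but neither it nor Os01g0124000 was called with a pseudocount of 5, and Os01g0124000 was called under neither other scaling. Neighbours of like sequence can share reads, so a run is not a set of independent calls.

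Proteinase inhibitors in all were higher in 8 of 17 measured genes and lower in none, with medians of 0.93 and 1.00. WIP1 (Os01g0132000), a wound-induced inhibitor, stood at 139 and 122 FPKM on day 1, against 9.12 and 6.33 FPKM well-watered, and the subtilisin/chymotrypsin inhibitor Os01g0615100 at 25.6 and 21.3 FPKM on day 1, against 2.46 and 1.65 FPKM well-watered. Papain-type cysteine proteases, which break down protein in vacuoles, were higher in 5 of 18 genes and lower in 1, with medians of 0.70 and 0.64. A vignain-like gene (Os08g0556900), of a protease family known from dying cells, stood at 184 and 133 FPKM on day 1, against 11.0 and 8.25 FPKM well-watered, and oryzain beta (Os04g0670200) at 39.2 and 41.3 FPKM on day 1, against 5.57 and 8.001 FPKM well-watered. Proteasome subunits were higher in 3 of 51 genes, and in none under either other scaling or with a pseudocount of 5, with medians of 0.57 and 0.54. Of 18 autophagy genes none was called, with medians of 0.21 and 0.23, close to those of all genes.

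Lipid transfer and wax genes, for the cuticle that slows water loss, were higher in 10 of 31 measured genes and lower in none. Their medians were 0.87 and 0.99, and 29 of 31 were above 0 in both kinds. Os05g0550300 stood at 68.8 and 73.4 FPKM on day 1, against 9.21 and 7.34 FPKM well-watered, and Os07g0290200 at 67.4 and 56.9 FPKM on day 1, against 13.7 and 13.0 FPKM well-watered. With a pseudocount of 5 the count was 4. The list, set by words in the descriptions, leaves out the lipid transfer protein genes Os12g0115000 (ratios 1.82 and 2.02) and Os12g0115100 (1.15 and 1.17). Both were also higher, and the call of Os12g0115100 was lost under median-ratio scaling. They were added as called genes, so missed members that were not called are not shown. Class III peroxidases, which cross-link walls, were higher in 6 of 17 listed genes and lower in 1 (Os09g0471100, 3.91 and 5.81 FPKM on day 1, against 22.7 and 33.5 FPKM well-watered), but none of the 6 was called with a pseudocount of 5. The list medians were 0.47 and 0.48. This list, set by words in the descriptions, leaves out 3 neighbouring peroxidase genes on chromosome 7 that were higher. They were Os07g0676900 (ratios 2.39 and 1.98), Os07g0677100 (2.77 and 2.58) and Os07g0677200 (2.63 and 2.18). These genes were picked from runs of called neighbours, so missed peroxidase genes that were not called are not shown. Their calls under the other settings are not given here. Of 45 chitinase and glucanase genes 9 were higher, against 1 with a pseudocount of 5, and the medians were 0.14 and 0.16. None of the 45 was lower on the deposited scale, against 3 under median-ratio scaling. Cellulose and other wall synthesis genes were higher in 6 of 49 and lower in 1, with medians of 0.42 and 0.36, but 1 was higher with a pseudocount of 5. Expansins and xyloglucan enzymes, which loosen walls, were higher in 2 of 20, with medians of 0.59 and 0.67.

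Transcription factor families lay nearer to all genes by median ratio, with their largest differences in single members. Their shares of higher genes ran from 7.41% (B-box and CCT) to 17.1% (AP2/ERF), against 6.93% of all genes. Shares of lower genes ran from 2.44% (AP2/ERF) to 7.41% (B-box and CCT), against 2.46%. Of 37 NAC genes 5 were higher and 2 lower. Besides NAC10, Os12g0123700 stood at 54.0 and 67.5 FPKM on day 1, against 1.97 and 2.29 FPKM well-watered, and Os07g0683200 at 55.4 and 118 FPKM on day 1, against 5.88 and 12.5 FPKM well-watered. Of 52 WRKY genes 5 were higher and 3 lower, and among the lower ones WRKY45-like Os05g0322900, of a gene known for rice blast defence, stood at 20.2 and 10.4 FPKM on day 1, against 123 and 70.01 FPKM well-watered. MYB genes were higher in 10 of 77 and lower in 3, AP2/ERF genes in 7 and 1 of 41, and bHLH genes in 7 and 2 of 56. Homeobox genes were higher in 4 of 50 and lower in 2, the higher ones with Os04g0541700 (HOX22) at 213 and 235 FPKM on day 1, against 41.5 and 46.2 FPKM well-watered. bZIP genes were higher in 3 of 33 and lower in 2, and B-box and CCT genes in 2 and 2 of 27. The medians of these 8 families lay between -0.11 and 0.28 in total RNA and between -0.14 and 0.28 in mRNA. With a pseudocount of 5 the higher genes numbered 3 for NAC, 1 for WRKY, 5 for MYB, 4 for AP2/ERF, 2 for bHLH and 1 for bZIP.

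Other signalling lists can be given by their counts. Calcium sensors and kinases were higher in 18 of 151 genes and lower in 3, led by the ABA-induced EF-hand gene Os04g0511200 at 71.5 and 68.3 FPKM on day 1, against 3.96 and 2.90 FPKM well-watered. The count was 11 higher under each other scaling, and the medians were 0.19 and 0.12. Receptor-like kinases were higher in 2 of 45 and lower in 3, with medians of -0.16 and -0.28. Of 13 TIFY genes, which include the JAZ repressors of jasmonate signalling, 2 were higher, with list medians of 0.52 and 0.52. Os09g0439200 stood at 35.5 and 28.7 FPKM on day 1, against 4.55 and 3.42 FPKM well-watered, and Os10g0392400 at 25.9 and 17.1 FPKM on day 1, against 3.504 and 2.37 FPKM well-watered. None of 17 jasmonate synthesis genes was called, with medians of 0.04 and 0.01, though 2 were lower under each other scaling. Ethylene synthesis was higher in 3 of 10 genes, all for the last enzyme, ACC oxidase, with list medians of 0.41 and 0.35. Of these, Os02g0771600 stood at 95.9 and 89.8 FPKM on day 1, against 28.0 and 28.3 FPKM well-watered. The count was 1 under median-ratio scaling, where Os09g0451000 and Os09g0451400 were lost. Auxin genes were higher in 8 of 71 and lower in 3, with medians of 0.19 and 0.16. Gibberellin genes were higher in 2 of 14 and lower in 1, with medians of 0.10 and 0.16, and here 1 gene described as gibberellin 20 oxidase 2 (Os08g0560000, 1.92 and 1.89) was higher and another (Os08g0249900, -1.46 and -1.23) lower.

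Large enzyme families went both ways in like numbers. Cytochrome P450 genes were higher in 17 of 129 and lower in 16, and UDP-glycosyltransferase genes in 11 and 10 of 86, so their lower shares of 12.4% and 11.6% stood against 2.46% of all genes. Their medians were -0.00047 and 0.04 for the first family and 0.19 and 0.13 for the second. Under median-ratio scaling the P450 counts were 14 higher and 20 lower, and those of the glycosyltransferases 6 and 14. Phenylpropanoid enzymes were higher in 9 of 49 and lower in 1, with medians of 0.18 and 0.06, and 5 were higher under median-ratio scaling or with a pseudocount of 5. A caffeoyl-CoA methyltransferase (Os08g0498100) stood at 110.0 and 292 FPKM on day 1, against 28.1 and 66.4 FPKM well-watered, and phenylalanine ammonia-lyase genes were found on both sides, Os12g0520200 at 1.46 and 1.86 and Os04g0518400 at -1.42 and -1.35, the lower call being lost with a pseudocount of 5. Pentatricopeptide repeat genes, of organelle RNA processing, were higher in 1 of 183 and lower in 2, with medians of 0.00062 and -0.05. Under median-ratio scaling 6 of the 183 were lower, beside 677 of all 18113 genes. On the authors' normalized values 7 were lower, beside 765 of all 18113. Of 42 cell cycle genes 1 was higher, of 47 histone genes 1 was higher and 3 lower, and of 13 aquaporin genes by description 1 was lower. The medians were 0.07 and 0.14 for the cell cycle, -0.09 and 0.01 for histones and -0.02 and 0.15 for aquaporins.

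The hour of sampling was not given in the sources used here. None of 7 measured circadian clock genes was called, with medians of -0.34 and -0.46. LHY (Os08g0157600), a morning gene, stood at 40.8 and 74.6 FPKM on day 1, against 34.8 and 64.7 FPKM well-watered, and the evening gene PRR1 (Os02g0618200) at 9.31 and 19.9 FPKM on day 1, against 14.0 and 33.5 FPKM well-watered. The largest ratio was that of PRR95 (Os09g0532400), at -0.70 and -1.16, past the limit in mRNA only. The part of sampling time in other differences was not tested. The 3 reference genes actin 1, UBQ5 and EF1a were above 0 in both kinds, with total RNA ratios of 0.93, 0.64 and 0.59, and none was called. None of 5 measured seed storage genes was called, with medians of 0.36 and 0.17.

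Some genes were listed at 0 in both well-watered libraries and called on day 1. There were 17, the noncoding Os11g0634350 among them, and for these no fold can be given. Os03g0826900, a conserved hypothetical gene, stood at 16.3 and 21.7 FPKM on day 1, and Os11g0659200, with a domain of unknown function, at 10.5 and 7.58 FPKM. The other 15 stood between 1.06 and 5.17 FPKM in total RNA, the highest being a leucoanthocyanidin dioxygenase-like gene (Os01g0832600). A GA 2-oxidase gene (Os01g0209700), of an enzyme class that inactivates gibberellin, stood at 2.69 and 2.56 FPKM. No gene was listed at 0 in both day 1 libraries and called lower. With a pseudocount of 5, only Os03g0826900 and Os11g0659200 of the 17 were still called.

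Noncoding genes were also called. Of 298 measured, 13 were higher (4.36%) and 5 lower (1.68%), against 6.98% and 2.48% of 17815 protein-coding genes; the difference between these shares was not tested. Os01g0681900 (chromosome 1, 28091236 to 28091512) had the largest smaller ratio, at 50.6 and 32.9 FPKM on day 1, against 5.38 and 4.30 FPKM well-watered, and its nearest coding gene, Os01g0681800 at 2141 bases, was not called (-0.45 and -0.14). Os12g0115050 (chromosome 12, 733811 to 734096) stood at 81.9 and 84.8 FPKM on day 1, against 21.4 and 18.5 FPKM well-watered, and lies 188 bases from the lipid transfer protein gene Os12g0115000, also higher at 1.82 and 2.02. Os02g0175950 stood at 52.1 and 43.4 FPKM on day 1, against 15.1 and 11.9 FPKM well-watered, 31 bases from the B-box gene Os02g0176000, higher at 1.52 and 2.03. Os01g0867400 overlaps the coding gene Os01g0867300, and both were higher (ratios 1.70 and 1.69 for the noncoding gene, 2.00 and 2.05 for the coding one). For 3 of these 5 highest noncoding genes the nearest coding gene was thus higher too, and for Os01g0681900 and Os06g0318800 it was not called. The libraries were strand-specific per the labels, but whether strand was used in making the FPKM values was not given in the sources used here.

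On the lower side Os06g0480500 stood at 2.08 and 2.74 FPKM on day 1, against 12.3 and 20.02 FPKM well-watered, and its nearest coding gene, 21751 bases away, was not called. The calls of Os01g0867400 and of the other 4 lower noncoding genes (Os03g0660050, Os04g0394766, Os05g0199700 and Os05g0368000) were lost with a pseudocount of 5. Os03g0660050 lies 55 bases from the conserved hypothetical gene Os03g0660000, which was also lower, at -1.42 and -1.40.

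Day 1 values can be set beside the later days, which share the well-watered libraries, so the ratios are not independent. SalT stood at 6.12, 147, 874 and 4223 FPKM when watered and on days 1, 2 and 3 in total RNA, a steep and steady course. Isocitrate lyase in mRNA stood at 1.64, 187, 1109.8 and 838 FPKM, highest on day 2 on the deposited scale. Dividing by the size factors would put day 3 above day 2. Fructosyltransferase stood at 2.32, 305, 465 and 24.6 FPKM in mRNA, which put day 3 below day 1. Some genes stood highest on day 1. The lipid transfer protein gene Os05g0550300 stood at 9.21, 68.8, 20.3 and 3.68 FPKM in total RNA and 7.34, 73.4, 21.2 and 3.44 FPKM in mRNA. SAPK7 (Os04g0432000) stood at 7.35, 20.9, 18.1 and 2.32 FPKM in total RNA, with day 2 close to day 1. Its mRNA course is not given here, so no peak is claimed for it. The symporter gene Os08g0503700, by contrast, was highest on day 2, at 131, 631, 1155 and 201 FPKM in total RNA.

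The A-type response regulators parted after day 1. RR10 stood at 59.5, 2.07, 0.965 and 0.605 FPKM in total RNA over the same 4 libraries and RR2 at 50.2, 2.67, 0.268 and 0.245 FPKM, so both stayed low. RR4, by contrast, stood at 61.6, 3.24, 2.46 and 25.5 FPKM and RR6 at 9.63, 0.509, 1.74 and 27.9 FPKM. RR6 was thus above its watered level on day 3, and the mRNA libraries gave the same order for both, with 43.4, 2.49, 1.56 and 18.0 FPKM for RR4 and 6.63, 1.18, 1.19 and 19.2 FPKM for RR6.

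**Figure D5:**
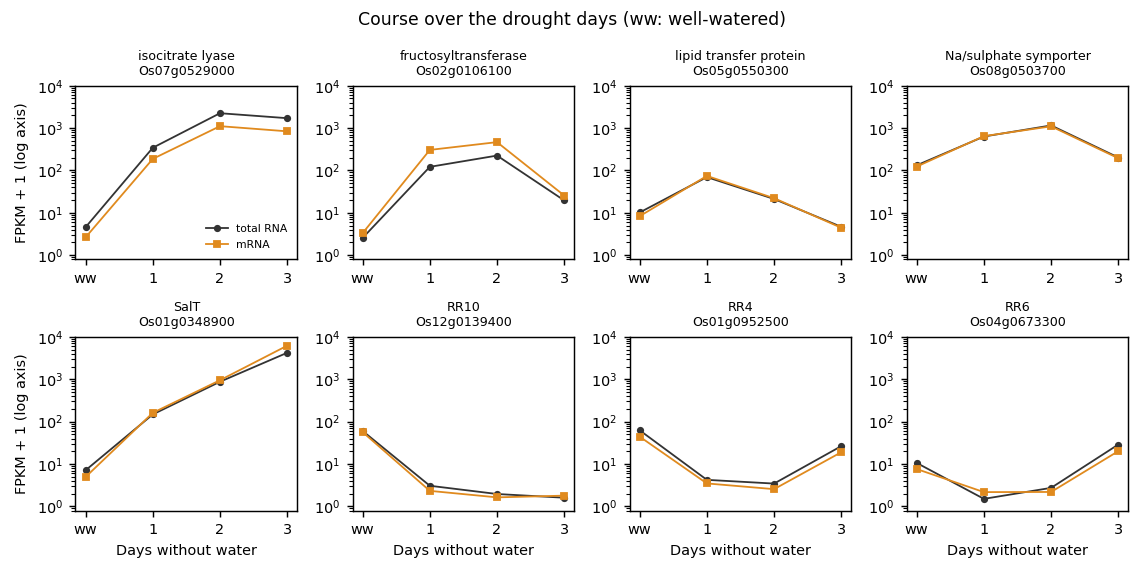
Each panel gives FPKM + 1 of 1 gene on a log axis in the well-watered library (ww) and after 1, 2 and 3 days without water, in total RNA (black circles) and mRNA (orange squares), with 1 library per point. On the deposited scale isocitrate lyase, fructosyltransferase and the symporter are highest on day 2, the lipid transfer protein on day 1 and SalT on day 3. RR10 stays low, and RR4 and RR6 are higher on day 3 than on day 1.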

How the data were processed

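Leaf RNA of 8 rice libraries was sequenced, as total RNA and as mRNA, and 4 of them, from day 1 without water and from well-watered plants, make up the comparison. The deposited tables hold FPKM per transcript and, per the file headers, normalized log2 values, which are quantile-normalized log2 of FPKM + 1 as far as the values show. Tools listed in the submitters' processing notes, with no role or order, are HISAT2 2.0.5, StringTie 1.3.3b, Bowtie2 2.2.6, Trimmomatic 0.32 and FastQC 0.10.0, on the IRGSP-1.0 genome build. FPKM are shares of a library, so a few abundant transcripts can shift all others. FPKM were summed per gene, and log2 ratios of FPKM + 1 (pseudocount of 1 FPKM) were taken inside each table, for genes averaging 1 FPKM or more in each, and genes at or past a limit of 1 on the log2 scale in both were called. No test was run. The steps were tested on simulated data.

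The 70 gene lists were set by locus, with symbols from general knowledge, or by words in the files' descriptions. A list set by words can miss members of its family. Both the lists and the comparison were chosen with earlier results of these data known, and 1 locus whose description went against its symbol was dropped. The genes named were the 15 highest and 15 lowest described genes, up to 4 called members per list and direction, all genes of the lists set by locus and the 5 highest and 5 lowest noncoding genes. They also include the 10 largest gains and losses in FPKM, genes called in opposite directions, called genes at 0 in both libraries of a treatment, and the 5 longest runs of neighbours. Not every gene that the rule allows is printed. A few genes outside the rule were picked after their values were seen. Alternatives were other pseudocounts, minimums, scalings (median ratios, the authors' normalized log2 values) and each table alone. Computations used Python 3.11.15 with pandas 2.3.3, numpy 2.4.6, scipy 1.17.1 and matplotlib 3.10.9.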

Additional observations from a re-analysis of the deposited data

How the results depend on the processing

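The counts depended most on the pseudocount and the scaling. With a pseudocount of 5 FPKM 648 genes were higher and 239 lower, and with a minimum mean of 5 FPKM 293 were lower. Under median-ratio scaling 677 were lower and higher genes made up 56.8% of the calls, and on the authors' normalized log2 values 765 were lower and the share was 55.8%. A larger pseudocount shrinks ratios of scarce genes by construction, and the cause of the shift under the scalings was not tested. In the remaining alternatives of each count, 891 to 1753 genes were higher and 478 to 603 lower. Of the 136 counts over gene lists, 54 moved by more than 1.5 times with a pseudocount of 5, 42 under median-ratio scaling, 37 on the authors' normalized values, 26 with a pseudocount of 0.1 FPKM and 20 with the higher minimum. Of the 367 genes named by the rule, 113 lost their call with a pseudocount of 5, 33 under median-ratio scaling and 35 on the authors' normalized values, and none changed direction. The 367 include genes that were not called in the first place and so had no call to lose. With a minimum mean of 5 FPKM 315 of the 367 were still measured, and 355 with the mean taken over the 2 libraries compared. Genes low in both treatments rest on few fragments. With 1 library per treatment and kind, no difference can be set against the spread between plants. No paired analysis was possible because each group holds 1 library per kind and the result comes from no test.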
